A study of Mus musculus with 6 samples.

Results

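The genes described here encode the junctions that hold epithelial cells together: 36 genes of tight junctions, of the polarity complex beside them, of adherens junctions and desmosomes, and of the cadherins that join cells or microvilli. They were taken by gene symbol from a list that used no threshold on measured values but was drawn up with earlier results of these data known, and all 36 were present among the 22611 genes of the expression table. The list left out *Cldn2* and *Cldn12*. Of the 36 genes, 32 had a mean above 1 FPKM (the number of fragments on a gene divided by transcript length and by the mapped fragments of the library) and were tested among 10596 genes.

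RNA was sequenced from duodenal epithelium of 3 wild type (WT) and 3 *Esrra*-/- mice, with 1 library per mouse. *Esrra* encodes an orphan nuclear receptor that acts on genes of mitochondrial energy metabolism. All mice had been fed a high-fat diet, the WT animals were littermate controls, and their ages are not given in the sources used here. The authors used mice of both sexes in their *Esrra*-/- experiments, and the labels give no sex for the libraries. *Esrra*-/- is a germline null allele that acts in every tissue, the breeding colony also carried a floxed *Esrra* allele and the *Villin-CreERT2* transgene, and the epithelial layer was released from the duodenum with EDTA. No separation of crypts from villi is named for these samples.

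Tight junctions seal the space between neighbouring epithelial cells near the apical surface. Claudins form their strands and decide which ions pass, occludin and the related MARVEL proteins organise the strands, and cytoplasmic scaffolds tie them to actin. Adherens junctions beneath them join the actin belts of adjacent cells through E-cadherin and the catenins, and desmosomes anchor keratin filaments. In the duodenum this apparatus lets nutrients and ions be absorbed while it keeps the content of the lumen out.

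*Esrra* itself was measured first. Its level was 49.4, 73.5 and 104 FPKM in the WT libraries and 10.4, 9.42 and 8.72 FPKM in the *Esrra*-/- libraries. Every *Esrra*-/- library lay below every WT library, at 12.6% of the WT mean. On the log2(FPKM + 0.1) scale used for all fold changes, *Esrra*-/- minus WT, the difference was −2.92 ± 0.26 (SE, adjusted p = 0.0215, limma with Benjamini-Hochberg adjustment), while the exact two-sided permutation test gave p = 0.1, the smallest that 3 against 3 allows.

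None of the 32 members tested was called lower or higher in *Esrra*-/- epithelium. The rule for a call asked for a limma p below 0.05 before adjustment together with a log2 difference larger than 0.58 either way, which 3.28% of all genes tested reached as lower and 1.35% as higher. At an adjusted p under 0.05, 0 of the 32 members passed in limma, with 0.0378% of all genes tested. No gene at all passed it, *Esrra* included, when WT replicate 2, WT replicate 3, *Esrra*-/- replicate 1 or *Esrra*-/- replicate 3 was left out. The smallest adjusted p of a member was 0.289, for *Pard3*. At an unadjusted p under 0.05 alone, 4 members were higher (*Pard3*, *Dsg2*, *Marveld2* and *Pard6b*) and 0 were lower, where 4.3% of all genes tested were higher and 6.49% lower.

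The members' differences were small and mostly of one sign. The log2 fold change was positive for 31 of 32 members, against 54.3% of all genes tested, with a median of 0.19 against 0.03 for all genes tested. *Epcam*, at −0.05, was the exception. The 32 values are not independent of each other, since they come from the same 6 libraries, and the count rests in part on 1 library. Without *Esrra*-/- replicate 3, 24 of 32 were positive and the median was 0.15. In that fit the median of all genes tested was 0.00499, and their share of positive values is not given here. For 11 members every *Esrra*-/- library lay above every WT library (*Cgn*, *Ctnna1*, *Ctnnb1*, *Ctnnd1*, *Dsc2*, *Dsg2*, *Marveld2*, *Pard3*, *Pkp2*, *Prkci* and *Tjp3*), a pattern found in 8.45% of all genes tested, and for 0 members every *Esrra*-/- library lay below, found in 9.14%. Most members are well expressed, and among the 5357 genes tested with a mean above 10 FPKM, which include 31 of the 32 members, 61.6% had a positive value, the median was 0.08 and 10.5% were higher without overlap. Among the 333 genes above 300 FPKM, with 6 members, 43.8% were positive, the median was −0.07 and 3.604% were higher without overlap.

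**Figure D1:**
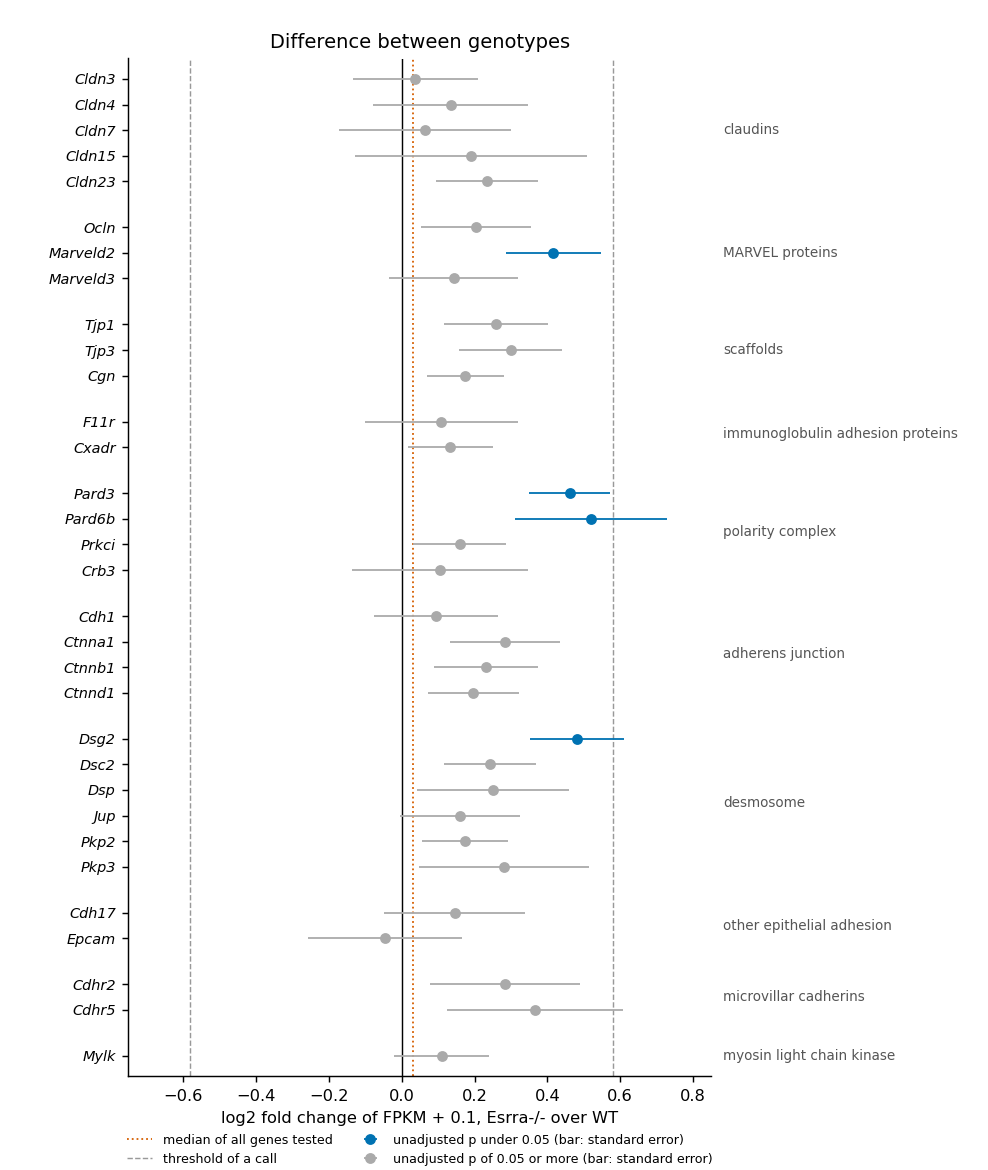
Log2 fold change of FPKM + 0.1, *Esrra*-/- over WT, for the 32 members tested, grouped by role. Points are limma estimates with standard errors, blue marks an unadjusted p under 0.05, the dotted line is the median of all genes tested and the dashed lines are the thresholds of a call. All points but that of *Epcam* lie right of 0, and none lies beyond the dashed lines.

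In the plot of log2 fold changes by role, the medians of the groups ran from 0.05 for *Cdh17* and *Epcam* to 0.32 for the 2 microvillar cadherins. The polarity complex had a median of 0.31, the scaffolds 0.26, the desmosome genes 0.25, the adherens junction and MARVEL genes 0.21 each and the claudins 0.13. The order changed with single libraries. Without *Esrra*-/- replicate 3 the median was 0.15 for the microvillar cadherins, −0.0536 for the claudins, −0.0925 for *Cdh17* and *Epcam* and 0.0113 for *F11r* and *Cxadr*. Without WT replicate 3 that of the scaffolds was 0.15, and without WT replicate 1 that of the MARVEL genes was 0.13. The polarity complex ranged from 0.25 to 0.37 as each library was left out, the desmosome genes from 0.16 to 0.25 and the adherens junction genes from 0.17 to 0.26. Standard errors ran from 0.11 for *Cgn* and *Pard3* to 0.32 for *Cldn15*, and 28 of the 32 members had an unadjusted p of 0.05 or more.

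Claudins, the strand-forming proteins, were among the most abundant junction transcripts. Of the 8 claudins listed, 5 passed the filter on low values. *Cldn7*, which encodes a claudin of the basolateral membrane as well as the junction, had 413, 470 and 597 FPKM in WT and 452, 444 and 660 FPKM in *Esrra*-/-. *Cldn15*, whose product forms sodium-permeable channels between enterocytes, had 332, 257 and 393 FPKM in WT and 327, 263 and 580 FPKM in *Esrra*-/-. *Cldn3*, a barrier-forming claudin, had 243, 286 and 302 FPKM in WT and 255, 277 and 321 FPKM in *Esrra*-/-. The genotypes overlapped for each of the 3 genes, whose levels exceeded those of *Cldn4* and *Cldn23* in every library.

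*Cldn4* stood at 58.1 to 102 FPKM in WT and 80.8 to 83.3 FPKM in *Esrra*-/-, so that the *Esrra*-/- values lay inside the WT range. *Cldn23* stood at 15.5, 16.7 and 16.5 FPKM in WT and 16.4, 22.2 and 19.2 FPKM in *Esrra*-/-, a log2 fold change of 0.23 ± 0.14 (SE, adjusted p = 0.582, limma with Benjamini-Hochberg adjustment). The other 4 were between 0.04 and 0.19, and which claudin had the largest value changed with the library left out: without *Esrra*-/- replicate 2, *Cldn23* was at 0.13 and *Cldn15* at 0.43. *Cldn1*, a barrier claudin of skin and other epithelia, was at 0.0202 FPKM or less in every library. *Cldn5*, the claudin of endothelium, was listed at 0 in 4 of 6 libraries and at 0.0443 FPKM at most, while *Cldn8*, a claudin of the distal colon and kidney, reached 0.264 FPKM.

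The 8 claudins together summed to 1191 ± 191 FPKM in WT and 1294 ± 319 FPKM in *Esrra*-/- (mean ± SD, n = 3 each), with the highest value of each genotype in replicate 3. *Cldn7* made up 41.3% ± 2.49 of this sum in WT and 40.1% ± 0.541 in *Esrra*-/-. *Cldn15* made up 27.5% ± 3.65 and 29.3% ± 5.40, and *Cldn3* 23.4% ± 2.54 and 22.4% ± 3.04 (SD, n = 3 each). The shares of *Cldn15* and *Cldn3* differed between genotypes by less than the SD of either genotype. For *Cldn7* the difference was smaller than the WT SD but larger than the *Esrra*-/- SD. *Cldn4* held 6.37% ± 0.961 and 6.58% ± 1.502 and *Cldn23* 1.38% ± 0.192 and 1.55% ± 0.449, again within the spread.

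**Figure D2:**
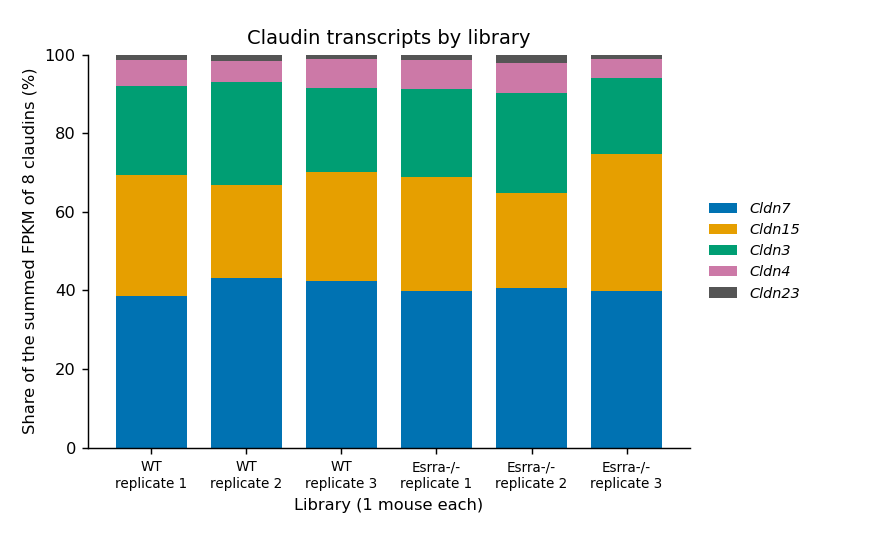
Share of each claudin in the summed FPKM of the 8 claudins listed, in percent, for each library. *Cldn7* takes 38.5% to 43.2% in every library, while the *Cldn15* share ranges from 23.6% to 34.9%, the highest in *Esrra*-/- replicate 3. *Cldn1*, *Cldn5* and *Cldn8* are too low to be seen.

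The plot of claudin shares shows the same order in 4 of the 6 libraries, *Cldn7* before *Cldn15* before *Cldn3*. In WT replicate 2 and *Esrra*-/- replicate 2 the *Cldn3* share, 26.3% and 25.4%, was above that of *Cldn15*, 23.6% and 24.1%.

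Of the MARVEL genes, *Marveld2* (chromosome 13, 101365912 to 101386926, minus strand, on mm9), which encodes tricellulin, the protein that seals the corners where 3 cells meet, differed most. Its level was 10.9, 8.58 and 10.2 FPKM in WT and 13.8, 12.5 and 13.2 FPKM in *Esrra*-/-. The groups did not overlap, with a log2 fold change of 0.42 ± 0.13 (SE, adjusted p = 0.355, limma with Benjamini-Hochberg adjustment). Without WT replicate 2 or *Esrra*-/- replicate 1 its unadjusted p was 0.05 or more, 0.0549 at most (limma). *Ocln*, encoding occludin, had 33.7, 43.3 and 41.5 FPKM in WT and 40.7, 45.4 and 50.1 FPKM in *Esrra*-/-, and *Marveld3* 30.5 to 35.4 and 29.9 to 45.4 FPKM. Both overlapped between genotypes, at 0.21 ± 0.15 and 0.14 ± 0.18 (SE) on the log2 scale, and leaving out 1 library moved *Ocln* between 0.0954 and 0.28.

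The cytoplasmic scaffolds that join the strands to actin were represented by *Tjp1* (ZO-1), *Tjp3* (ZO-3) and *Cgn* (cingulin). *Tjp3* had 66.8, 61.6 and 52.3 FPKM in WT and 75.4, 75.9 and 70.1 FPKM in *Esrra*-/-, without overlap, a log2 fold change of 0.30 ± 0.14 (SE, adjusted p = 0.5, limma with Benjamini-Hochberg adjustment). *Cgn* varied least of the 3, at 23.5, 23.4 and 22.4 FPKM in WT and 26.3, 26.5 and 25.6 FPKM in *Esrra*-/-, a separation without overlap of 0.18 ± 0.11 (SE). *Tjp1* had 15.7, 17.5 and 13.2 FPKM in WT and 19.4, 18.9 and 16.95 FPKM in *Esrra*-/-, and the lowest *Esrra*-/- value lay under the highest WT value. *Cgnl1*, the paralogue of cingulin, stayed at 0.156 FPKM or less and was not tested. The immunoglobulin-type adhesion proteins *F11r* (JAM-A), with 76.8 to 103 FPKM in WT and 76.3 to 118 FPKM in *Esrra*-/-, and *Cxadr*, with 31.2 to 34.9 and 34.9 to 38.1 FPKM, overlapped or met at their edges, at 0.11 ± 0.21 and 0.13 ± 0.12 (SE).

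The polarity complex places the tight junction at the border of the apical membrane. It held 2 of the 4 members higher at an unadjusted p under 0.05, where 4.3% of all genes tested were higher. *Pard3* (chromosome 8, 129587793 to 130136186, plus strand, on mm9) encodes the scaffold that brings the complex to the junction. It had 10.97, 11.9 and 10.4 FPKM in WT and 15.5, 14.8 and 15.5 FPKM in *Esrra*-/-. Each *Esrra*-/- library lay well above each WT library, a log2 fold change of 0.46 ± 0.11 (SE, adjusted p = 0.289, limma with Benjamini-Hochberg adjustment). *Pard6b* (chromosome 2, 167906504 to 167926703, plus strand) encodes the adaptor that binds atypical protein kinase C. It had 19.0, 11.7 and 17.3 FPKM in WT and 25.1, 18.9 and 23.9 FPKM in *Esrra*-/-. It gave the largest log2 fold change of all members, 0.52 ± 0.21 (SE, adjusted p = 0.439, limma with Benjamini-Hochberg adjustment), and its groups overlapped by a narrow margin. Leaving out WT replicate 1, WT replicate 3 or *Esrra*-/- replicate 2 each made *Pard6b* a called gene, with log2 fold changes up to 0.66, and leaving out WT replicate 2 lowered its value to 0.31. Without WT replicate 2, *Esrra*-/- replicate 1 or *Esrra*-/- replicate 3 the unadjusted p of *Pard6b* was 0.123, 0.119 and 0.0951 (limma).

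The kinase of the complex, *Prkci*, was the lowest of the members tested. Its level was 8.85, 8.798 and 7.64 FPKM in WT and 10.5, 8.86 and 8.96 FPKM in *Esrra*-/-, so that the groups nearly touched. *Crb3*, the apical membrane determinant, was the highest of the 4, with 92.1, 83.0 and 135 FPKM in WT and 99.3, 92.3 and 140 FPKM in *Esrra*-/-, the replicate 3 value being the highest in each genotype. The 2 genes gave 0.16 ± 0.13 and 0.11 ± 0.24 (SE) on the log2 scale.

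In the adherens junction, the 3 catenins were separated between genotypes and E-cadherin was not. *Cdh1*, encoding E-cadherin, had 137, 140 and 110 FPKM in WT and 131, 159 and 124 FPKM in *Esrra*-/-, a log2 fold change of 0.09 ± 0.17 (SE). *Ctnna1*, whose product links the complex to actin, had 135, 132 and 148 FPKM in WT and 170, 148 and 187 FPKM in *Esrra*-/-. *Ctnnb1*, encoding beta-catenin, which also carries Wnt signals, had 170, 172 and 185 FPKM in WT and 204, 192 and 224 FPKM in *Esrra*-/-. All *Esrra*-/- values of both catenins lay above the WT values, though for *Ctnna1* the nearest pair differed by under 1 FPKM. *Ctnnd1*, encoding p120-catenin, which keeps E-cadherin at the membrane, had 84.9, 84.5 and 85.4 FPKM in WT, the tightest set of the members, and 99.5, 91.0 and 102 FPKM in *Esrra*-/-. The log2 fold changes were 0.28 ± 0.15 for *Ctnna1*, 0.23 ± 0.14 for *Ctnnb1* and 0.20 ± 0.12 for *Ctnnd1* (SE), with adjusted p of 0.538, 0.594 and 0.602 (limma with Benjamini-Hochberg adjustment).

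The proportion of catenins to E-cadherin was less clear. *Ctnnb1* stood at 1.38 ± 0.262 times the FPKM of *Cdh1* in WT and 1.52 ± 0.304 times in *Esrra*-/- (SD, n = 3 each). *Ctnna1* stood at 1.09 ± 0.223 and 1.25 ± 0.294 times. Both ratios were highest in replicate 3 of each genotype, and the difference between genotypes was smaller than the spread within them.

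The desmosome genes were all positive, and *Dsg2* showed the clearest difference of them. *Dsg2* (chromosome 18, 20716575 to 20763022, plus strand, on mm9) encodes a desmosomal cadherin found in simple epithelia. It had 48.7, 49.5 and 50.8 FPKM in WT and 71.9, 61.9 and 74.8 FPKM in *Esrra*-/-. The WT values were close together and all lay below the *Esrra*-/- values, a log2 fold change of 0.48 ± 0.13 (SE, adjusted p = 0.31, limma with Benjamini-Hochberg adjustment) or 1.40-fold on that scale. Its partner *Dsc2* had 41.0, 43.1 and 37.8 FPKM in WT and 45.1, 47.2 and 52.2 FPKM in *Esrra*-/-, also without overlap, at 0.24 ± 0.13 (SE). *Dsg2* was 1.23 ± 0.103 times the level of *Dsc2* in WT and 1.45 ± 0.142 times in *Esrra*-/- (SD, n = 3 each), with the highest WT ratio, 1.34, above the lowest *Esrra*-/- ratio, 1.31.

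Inside the cell, *Dsp* (desmoplakin) anchors keratin filaments, and *Jup* (plakoglobin) and the plakophilins join it to the cadherins. *Dsp* had 43.8, 49.3 and 37.6 FPKM in WT and 61.1, 58.3 and 38.4 FPKM in *Esrra*-/-, so that *Esrra*-/- replicate 3 lay among the WT values and the other 2 above them. *Jup* had 109, 109 and 141 FPKM in WT and 126, 125 and 149 FPKM in *Esrra*-/-. Of the plakophilins, *Pkp2* had 15.3 to 17.6 FPKM in WT and 17.8 to 19.6 FPKM in *Esrra*-/-, just without overlap, and *Pkp3* 62.7 to 85.02 and 64.6 to 114 FPKM. The log2 fold changes of these 4 genes were 0.25 ± 0.21 for *Dsp*, 0.16 ± 0.17 for *Jup*, 0.17 ± 0.12 for *Pkp2* and 0.28 ± 0.23 for *Pkp3* (SE). Single libraries moved them by over 1.5 times: as each was left out, *Dsp* ranged from 0.13 to 0.46 (the latter without *Esrra*-/- replicate 3, unadjusted p = 0.0261, limma), *Pkp3* from 0.0716 to 0.48, *Jup* from 0.0768 to 0.28 and *Pkp2* from 0.11 to 0.22.

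By mean FPKM in each genotype, the most abundant members were *Cdhr5*, *Epcam* and *Cdh17*, followed by *Cldn7* and *Cdhr2*. *Cdhr5* and *Cdhr2*, whose products link the tips of neighbouring microvilli in the brush border, differed most among them. *Cdhr5* had 675, 617 and 859 FPKM in WT and 889, 740 and 1164 FPKM in *Esrra*-/-, and *Cdhr2* had 339, 316 and 369 FPKM in WT and 377, 352 and 534 FPKM in *Esrra*-/-. The genotypes overlapped, with *Esrra*-/- replicate 3 far above the others, and the log2 fold changes were 0.37 ± 0.24 and 0.28 ± 0.21 (SE). As each library was left out, *Cdhr5* ranged from 0.19 to 0.52 and *Cdhr2* from 0.0989 to 0.40. Set against *Vil1*, a structural gene of the same microvilli, *Cdhr5* stood at 0.881 ± 0.0359 times in WT and 0.954 ± 0.0423 times in *Esrra*-/-, and *Cdhr2* at 0.424 ± 0.0453 and 0.433 ± 0.0435 times (SD, n = 3 each).

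*Cdh17*, the liver-intestine cadherin of the lateral membrane, had 528, 486 and 489 FPKM in WT and 513, 486 and 683 FPKM in *Esrra*-/-. *Epcam*, an adhesion molecule that stabilises *Cldn7*, had 573, 634 and 776 FPKM in WT and 565, 592 and 767 FPKM in *Esrra*-/-. The ranges of the genotypes nearly coincided, and its log2 fold change was −0.05 ± 0.21 (SE). *Mylk*, encoding the myosin light chain kinase that contracts the actin ring at the junction, had 48.4 to 58.5 FPKM in WT and 56.4 to 60.9 FPKM in *Esrra*-/-, at 0.11 ± 0.13 (SE). *Mylk* is also a smooth muscle gene. The 7 smooth muscle markers summed to 2.74 to 3.75 FPKM in WT and 4.27 to 5.39 FPKM in *Esrra*-/-, without overlap and small beside *Mylk*. Most of that sum was *Tagln*, at 2.65 to 3.49 FPKM in WT and 3.01 to 3.96 FPKM in *Esrra*-/-, which overlapped, while *Acta2* (0.0327 to 0.116 and 0.117 to 1.04 FPKM), *Myh11* (0 to 0.0240 and 0.0387 to 0.203 FPKM) and *Actg2* (0 to 0.0569 and 0.10 to 0.786 FPKM) were higher in every *Esrra*-/- library. Their part in the *Mylk* value was not tested.

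**Figure D3:**
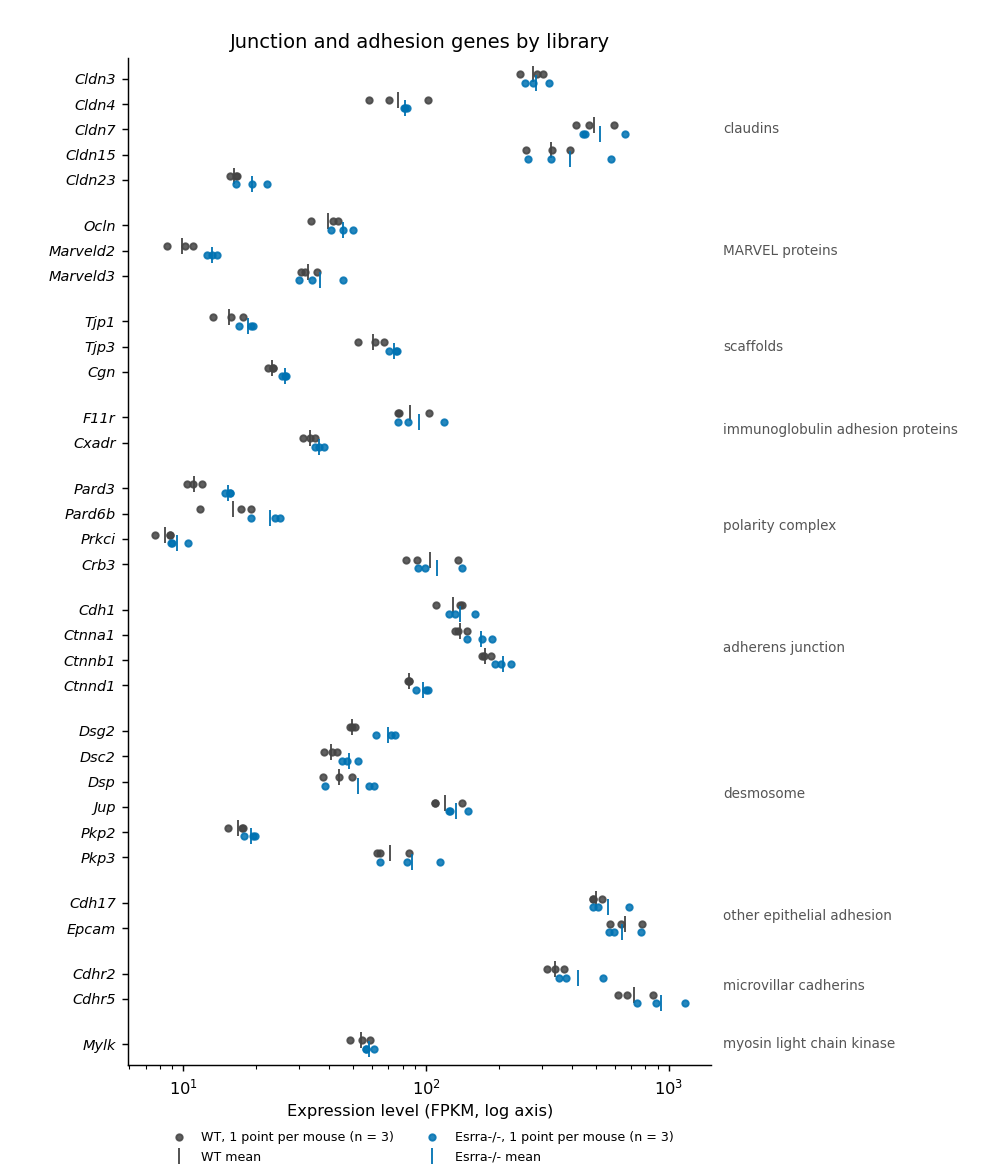
Expression of the 32 members tested in FPKM on a log axis, by role. Each point is 1 mouse (dark, WT; blue, *Esrra*-/-) and the short vertical line is the mean of the 3 mice. Levels span from 7.64 FPKM for *Prkci* to 1164 FPKM for *Cdhr5*, and differences between genes are far wider than those between genotypes.

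Per length, as the plot of levels by library shows, the order in WT ran from *Cdhr5* (717 ± 126 FPKM), *Epcam* (661 ± 104), *Cdh17* (501 ± 23.7) and *Cldn7* (493 ± 94.2) through *Cdhr2* (341 ± 26.6), *Cldn15* (327 ± 68.3) and *Cldn3* (277 ± 30.9) down to *Pard3* (11.1 ± 0.760), *Marveld2* (9.89 ± 1.195) and *Prkci* (8.43 ± 0.685; mean ± SD, n = 3). Neighbours in this order, such as *Cdhr5* and *Epcam*, *Cdh17* and *Cldn7*, or *Cdhr2* and *Cldn15*, did not differ beyond their spread. Among the 4 members with an unadjusted p under 0.05, *Pard3*, *Pard6b* and *Marveld2* belong to the low end of the range and *Dsg2* to its middle.

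**Figure D4:**
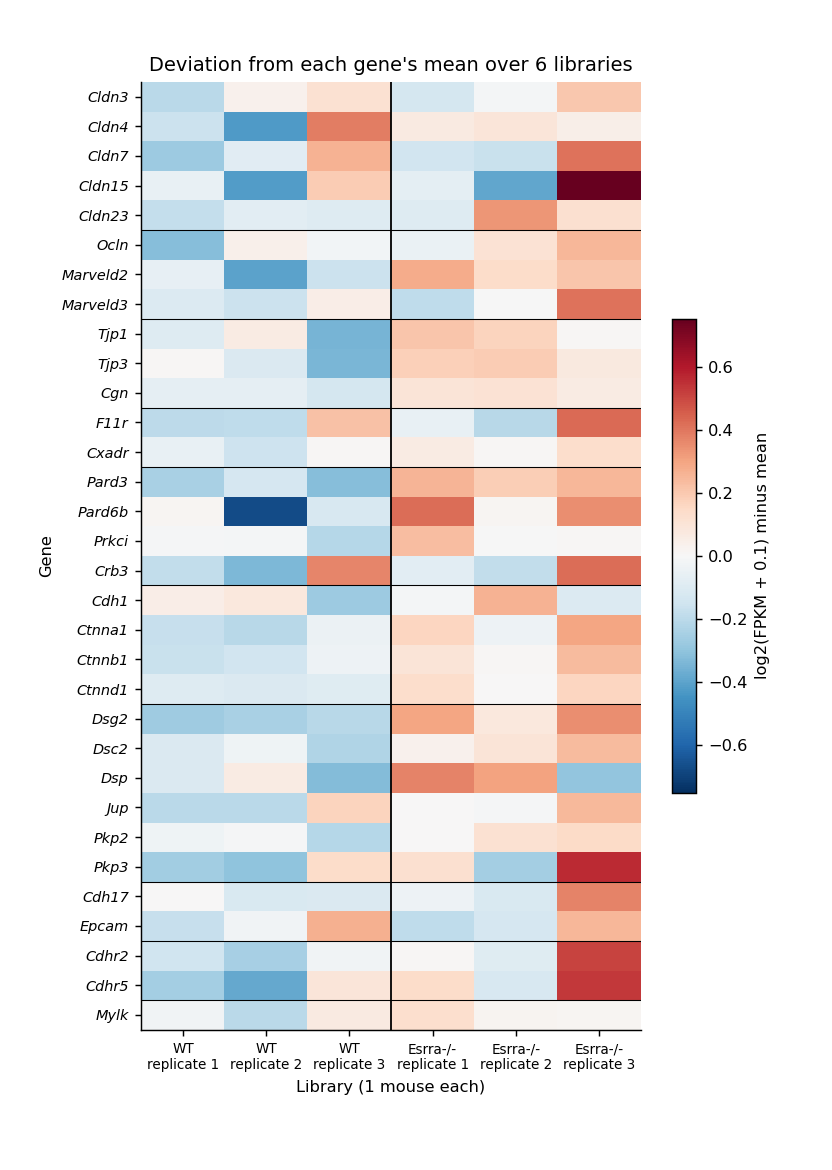
Each member's log2(FPKM + 0.1) in each library minus its mean over the 6 libraries. Red is above and blue below the gene's mean, and horizontal lines divide the roles. The *Esrra*-/- columns are redder than the WT columns, most of all replicate 3, which reverses for *Dsp* and *Cdh1*.

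The map of deviations by library shows how the members moved together. Their median deviation was −0.13, −0.13 and −0.04 in the WT libraries and 0.06, 0.01 and 0.24 in the *Esrra*-/- libraries (log2 units). The 2 sets did not overlap, but *Esrra*-/- replicate 2 lay close to WT replicate 3. Replicate 3 held the highest value of its genotype for 18 of 32 members in WT and for 20 of 32 in *Esrra*-/-, and *Esrra*-/- replicate 2 held the lowest for 18.

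Replicate 3 of both genotypes differed from its fellows along transcript length. In WT replicate 3, *Cldn4* (0.68) and *Crb3* (0.63) stood above replicates 1 and 2, and *Cdh1* (−0.34), *Tjp1* (−0.33) and *Dsp* (−0.30) below. In *Esrra*-/- replicate 3, *Cldn15* (0.98) and *Pkp3* (0.63) stood above and *Dsp* (−0.63) below. Across the 32 members this difference and the longest annotated transcript had a Spearman rho of −0.67 in WT and −0.57 in *Esrra*-/-, and across 10581 genes tested of −0.38 and −0.21. These are descriptions across genes that share libraries, with no test.

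**Figure D5:**
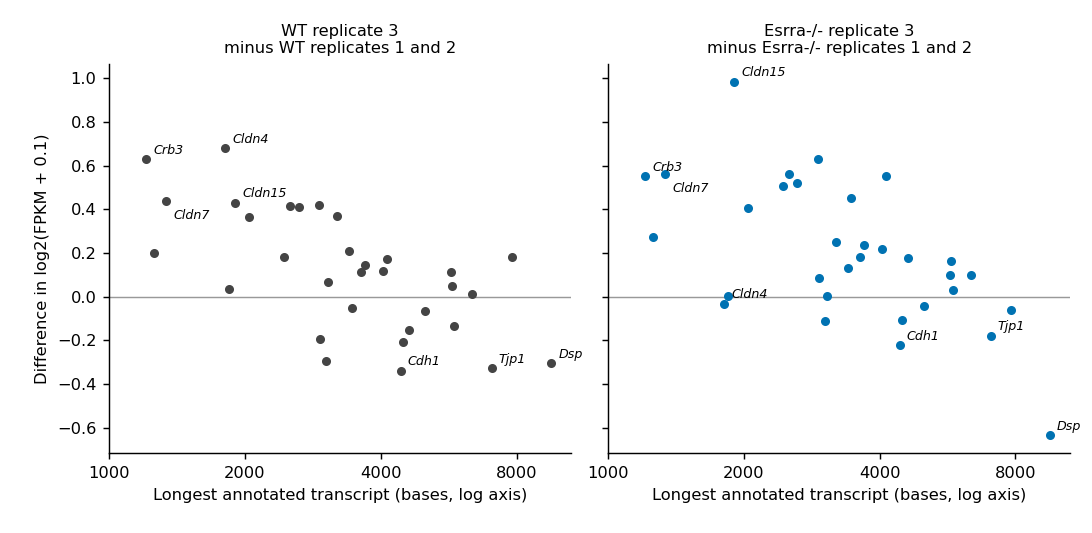
Difference in log2(FPKM + 0.1) between replicate 3 and the mean of replicates 1 and 2 of the same genotype, against the length of the longest annotated transcript on a log axis, for the 32 members (left, WT; right, *Esrra*-/-). The shortest, *Crb3* (1206 bases), lies above 0 and the longest, *Dsp* (9538 bases), below 0 in both, while *Cldn4* (1809 bases) lies at 0.68 in WT and −0.0313 in *Esrra*-/-.

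Length also ran with the difference between genotypes. The log2 fold change and the transcript length had a Spearman rho of 0.37 over the 32 members and 0.20 over all genes with a length. Among the 3527 genes with the longest transcripts, above 3779 bases, which include 13 members, 64.6% had a positive value, with a median of 0.09. Among the 3527 with the shortest, with 7 members, 43.0% did, with a median of −0.05. Mice of both sexes were used, and the sex of each mouse is not labelled. Transcripts of Y-linked genes summed to 27.3 to 46.7 FPKM in replicates 1 and 2 of both genotypes and to 0.0487 and 0.222 FPKM in replicate 3. The part of transcript length and of this difference between libraries in the members' values was not tested.

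Markers of the cells in the epithelial layer were read beside the members. All 11 crypt markers were negative, with a median log2 fold change of −0.63. Of these, 3 had an unadjusted p under 0.05 (limma) and 1 was called lower. The crypt markers summed to 237 to 378 FPKM in WT and 122 to 282 FPKM in *Esrra*-/-. All 5 Paneth cell markers were negative, with a median of −1.37 and 3 called lower. They summed to 7449 to 15932 FPKM in WT and 1554 to 6844 FPKM in *Esrra*-/-. Among all genes tested, 6.49% were lower at an unadjusted p under 0.05 (limma) and 3.28% were called lower. Of 12 villus enterocyte markers, 11 were positive, with a median of 0.22 and none at an unadjusted p under 0.05 (limma), and they summed to 40098 to 64866 and 49588 to 68663 FPKM.

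By library, the median deviation of the villus markers was −0.17, −0.37 and 0.15 in WT and 0.21, −0.25 and 0.46 in *Esrra*-/-, and that of the crypt markers 0.33, 0.54 and 0.03 in WT and −0.35, 0.17 and −0.82 in *Esrra*-/-. *Esrra*-/- replicate 3 was thus the highest for the junction genes and the villus markers and the lowest for the crypt markers. Their part in the members' values was not tested, and in RNA from the whole layer a change in the share of a cell type and a change in RNA per cell cannot be told apart. The 9 endothelial markers summed to 1.08 to 2.05 FPKM in WT and 1.78 to 3.33 FPKM in *Esrra*-/-, with *Pecam1* and *Cdh5* at 0.359 and 0.0264 FPKM at most. *Tek*, the most abundant of them over all 6 libraries though not in WT alone, was at 0.129, 1.24 and 0.139 FPKM in WT and 1.23, 2.202 and 1.48 FPKM in *Esrra*-/-. It was the 1 endothelial marker tested and was called higher, but it passed the limit of 1 FPKM only through *Esrra*-/-, and its groups overlapped. Fibroblast markers summed to 0.415 to 1.09 and 0.638 to 3.12 FPKM, and markers of squamous epithelium to 0.0817 FPKM at most. Immune markers, chiefly *Cd74*, summed to 309 to 1447 FPKM in WT and 734 to 2126 FPKM in *Esrra*-/-. Goblet, enteroendocrine and tuft cell markers had medians of 0.12, −0.06 and −0.03, with none at an unadjusted p under 0.05 (limma). *Apoa4*, an apolipoprotein gene of enterocytes, was at 13121 to 22014 FPKM and the goblet cell gene *Tff3* at 1804 to 2126 FPKM, as a library of intestinal epithelium has them.

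Genes that work with the members were counted from lists of related genes. Of 111 related genes in the table, 70 were tested, and 56 of these were positive, with a median of 0.15. At an unadjusted p under 0.05 (limma), 7 were higher, where 4.3% of all genes tested were, and 0 were lower. The 8 genes higher without overlap stand beside the 8.45% of all genes tested, and the 1 called gene beside the 1.35% called higher. That gene was *Ppl*, encoding periplakin, a relative of desmoplakin, at 1.10, 0.872 and 0.759 FPKM in WT and 1.79, 1.62 and 1.42 FPKM in *Esrra*-/-. Its WT mean of 0.909 FPKM lies under the filter, which it passed only through *Esrra*-/-, so its call is not a result. The counts of 56, 7 and 8 above hold *Ppl* as well.

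Of the others, 5 are named after their values were seen. In the actomyosin ring, 3 of 12 genes were higher at an unadjusted p under 0.05 (limma), where 4.3% of all genes tested were. The other lists held 1 of 19 tight junction genes, 2 of 14 adherens junction genes and 1 of 8 desmosome genes (*Ppl*). It was 0 of 4 for the intermicrovillar complex and 0 of 13 for basal adhesion. The 3 actomyosin genes include *Myh14*, a nonmuscle myosin heavy chain, at 0.44 and *Arhgef18*, a guanine nucleotide exchange factor, at 0.27 on the log2 scale. *Camsap3*, which holds microtubule ends, and *Pkp4*, a relative of p120-catenin, were at 0.47 and 0.32 in the adherens junction list. *Inadl*, a tight junction scaffold, was at 0.44. The smallest adjusted p of the 5 was 0.289, for *Camsap3* (limma with Benjamini-Hochberg adjustment).

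By list, 14 of 19 other tight junction genes, 12 of 14 other adherens junction genes, 5 of 8 other desmosome genes, 4 of 4 genes of the intermicrovillar complex, 9 of 13 basal adhesion genes and 12 of 12 genes of the actomyosin ring were positive. The most abundant gene of each list had an unadjusted p of 0.05 or more. *Lsr*, the receptor that brings tricellulin to cell corners, had 122 to 142 FPKM in WT and 136 to 171 FPKM in *Esrra*-/-. *Actn4*, an actin crosslinker, had 275 to 291 and 288 to 364 FPKM, and *Krt8*, the keratin bound by desmosomes, 1241 to 1619 and 1336 to 1912 FPKM. *Calml4*, a light chain in the microvillar complex, *Cd151*, a tetraspanin of the basal membrane, and *Myl12b*, a regulatory light chain of myosin, had log2 fold changes of 0.19, 0.14 and 0.07. Of the other 13 claudins, none passed the filter, and together they summed to 0.552 FPKM at most in a library.

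The promoters are shown for the members at an unadjusted p under 0.05 for which a sequence was at hand (*Pard3*, *Pard6b* and *Marveld2*), and for *Ctnnd1*, the only matched member whose promoter held the motif bound by ESRRA. Sequences are the 250 bases before the transcription start from RefSeq on GRCm38.p6, 5′ to 3′ on the gene's strand, and 33 promoters of 25 members were matched. Capitals mark AAGGTCA, the core motif of estrogen-related receptors, and CACCTG, an E-box of the kind bound by Snail and Zeb repressors, or its reverse complement CAGGTG.
Pard3, chr8:127299362-127299611 (+): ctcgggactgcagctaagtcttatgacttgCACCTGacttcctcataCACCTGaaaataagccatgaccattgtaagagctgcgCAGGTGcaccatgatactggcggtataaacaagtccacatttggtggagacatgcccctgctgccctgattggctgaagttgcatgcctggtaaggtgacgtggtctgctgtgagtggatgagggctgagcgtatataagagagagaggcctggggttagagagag
Pard6b, chr2:168080754-168081003 (+): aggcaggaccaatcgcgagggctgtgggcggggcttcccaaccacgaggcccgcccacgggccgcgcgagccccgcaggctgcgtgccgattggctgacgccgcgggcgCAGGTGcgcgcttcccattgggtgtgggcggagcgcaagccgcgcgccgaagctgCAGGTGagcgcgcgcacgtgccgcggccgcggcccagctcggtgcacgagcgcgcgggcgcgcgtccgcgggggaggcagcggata
Marveld2, chr13:100616972-100617221 (-): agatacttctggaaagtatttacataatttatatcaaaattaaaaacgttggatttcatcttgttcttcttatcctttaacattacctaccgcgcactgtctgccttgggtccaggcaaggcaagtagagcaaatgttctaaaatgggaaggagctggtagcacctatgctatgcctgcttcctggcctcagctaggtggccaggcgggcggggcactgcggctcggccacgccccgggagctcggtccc
Ctnnd1, chr2:84650741-84650990 (-): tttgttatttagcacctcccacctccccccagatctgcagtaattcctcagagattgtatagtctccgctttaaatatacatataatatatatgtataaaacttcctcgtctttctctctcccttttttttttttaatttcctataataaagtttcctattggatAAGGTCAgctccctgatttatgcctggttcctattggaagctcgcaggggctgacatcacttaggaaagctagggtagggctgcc

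Windows with a match were printed where a gene had several starts. The *Pard3* window is that of a downstream start and held 3 E-boxes, 220, 203 and 166 bases before it, while the window of the upstream start held 0. *Pard6b* held 2, at 141 and 86 bases, and both *Marveld2* windows held 0. *Ctnnd1* held AAGGTCA 85 bases before this start, and the window of its other start held 0 matches. AAGGTCA or its reverse complement TGACCTT lay in 1 of 33 member promoters (3.03%), against 4.08% of 32851 promoters. The E-box lay in 11 of 33 (33.3%), of 9 genes (*Cldn4*, *Cldn7*, *Crb3*, *Epcam*, *F11r*, *Ocln*, *Pard3*, *Pard6b* and *Tjp3*), against 17.2% of all promoters. The member promoters had a median GC content of 60.8% and all promoters 52.4%, some windows of 1 gene overlap, and a match describes letters only.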

How the data were processed

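RNA was sequenced from duodenal epithelium of 3 WT and 3 *Esrra*-/- mice. The authors checked reads with FastQC (0.11.3), quantified them against mm9 with kallisto (2.1.0) and derived FPKM with DESeq2 (2.2.1), versions as their methods state them; the annotation is not given in the sources used here. The deposited FPKM values were used as they stood. The authors' own comparison table (fold changes, p-values) was not used. FPKM does not give the depth of a library.

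Here log2(FPKM + 0.1) was fitted with limma (3.58.1, R 4.3.3), lmFit and eBayes with a trend, for genes with a mean FPKM above 1, with Benjamini-Hochberg adjustment over all of them. Fold changes on this scale understate those of low genes. The fit was tested on simulated data with equal, independent noise for every gene, which checks the code and not the error rate in these libraries. Transcript lengths came from GENCODE M1 (mm9). The text names *Esrra*, every member, called and most abundant genes of related lists, and the most abundant or defining genes of marker lists; *Vil1* was added as a reference, and 5 related genes after their values were seen; 1 more is not reported here. Members, lists and the Y-linked covariate were chosen with earlier results of these data known, and the motifs after the data were seen. Alternatives were another pseudocount, filters, scalings and models, covariates, and leaving out each library.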

Additional observations from a re-analysis of the deposited data

How the results depend on the processing

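FPKM values carry no read counts, so the counting error of low genes such as *Prkci* or *Ppl* is unknown, and 3 mice a genotype limit every test. No member was called lower under any setting. The number called higher ranged from 0 to 1 as each library was left out (*Pard6b*) and was 0 under every other setting. Members higher at an unadjusted p under 0.05 numbered 4, and from 2 to 5 as libraries were left out. They numbered 9 with the replicate number as a block or with a Y-linked covariate (*Cdhr5*, *Ctnna1*, *Ctnnb1*, *Dsg2*, *Marveld2*, *Pard3*, *Pard6b*, *Tjp1* and *Tjp3* in both). The share of all genes tested at that limit is not given for these settings. More genes of the whole table were also called under the block and under the covariate. Whether the replicate numbers pair the mice is not given in the sources used here. Over all genes tested, deviations of same-numbered libraries correlated at 0.012, 0.26 and 0.38 for replicates 1, 2 and 3. *Pard3* and *Dsg2* stayed under 0.05 in every setting, and no member reached an adjusted p of 0.05 in any (lowest 0.101, limma with the block). Genes called in the whole table were 348 lower and 143 higher, and 528 and 277 with no filter. At an adjusted p under 0.05 they were 2 and 2. They were 441 lower and 192 higher with the block and 413 and 173 with the Y-linked covariate. As libraries were left out, 252 to 533 were called lower. Quantile normalization turned *Epcam* to 0.0898, put *Cdhr2* and *Cdhr5* under an unadjusted p of 0.05 and took *Pard6b* out, as limma without a trend also did. Genes at an adjusted p under 0.05 numbered 4, 0 with the block, 32 with quantile normalization, 52 with the Y-linked covariate and 0 to 12 as libraries were left out. Leaving out 1 library turned the sign of 10 members, whose log2 fold changes ranged from −0.0547 to 0.11 (*Cldn3*), −0.0465 to 0.36 (*Cldn4*), −0.12 to 0.21 (*Cldn7*), −0.14 to 0.43 (*Cldn15*), −0.0773 to 0.25 (*F11r*), −0.0274 to 0.27 (*Marveld3*), −0.0786 to 0.31 (*Crb3*), −0.0184 to 0.17 (*Cdh1*), −0.0041 to 0.24 (*Cdh17*) and −0.18 to 0.0760 (*Epcam*). Without a turn of sign, 1 library moved, among others, *Cldn23* between 0.13 and 0.34 and *Tjp1* between 0.15 and 0.35. It also moved *Prkci* between 0.0821 and 0.20 and *Mylk* between 0.0351 and 0.17. The cause was not tested.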
